A study of Homo sapiens with 8 samples.

Results

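Matrix metalloproteinases, their tissue inhibitors and the urokinase pair that activates plasminogen were read in CAPAN-2 cells, an established line from a human pancreatic adenocarcinoma. The genes were taken by name: MMP1, MMP2, MMP7, MMP9, MMP14, TIMP1, TIMP2, PLAU and PLAUR. Every probe whose accession maps to one of these 9 symbols was used, and each gene had 1 probe among the 41000 probes of the array. A probe was tested in an experiment when either the knockdown or the control had it well above background, by the scanner software's own flag, on every one of the 4 arrays. By this filter 6 of the 9 genes were tested in the ErbB2 experiment and 8 of the 9 in the MUC4 experiment.

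Transcripts were compared on 8 Agilent 2-colour arrays to find those that depend on the receptor ErbB2 or on the membrane mucin MUC4. ErbB2-KD clones carried a pGeneClip puromycin vector coding for an ErbB2 shRNA, by stable transfection, and the 4 of them (EV7, EV12, EV9 and EV18, on arrays 1 to 4) were each hybridised with the RNA of NT clones, which carry the empty vector. MUC4-KD clones carried the retroviral pRetroSuper vector with a MUC4-targeting sequence under G418 selection, and 4 arrays set them against Mock clones, which carry the empty retroviral vector. By the methods each array held 1 knockdown clone and each control was a pool of 4 clones, so the control counts as 1 sample and its own spread enters no test. The labels do not name the MUC4-KD clones. Dyes were balanced, with Cy5 for the labelled knockdown on 2 arrays of an experiment and Cy3 on 2. All cells were clones of the same parental line, isolated by limiting dilution, so that a knockdown cannot be told apart from what else differs between selected clones. In RNA of whole cultures, fewer cells that express a gene and less RNA per cell cannot be told apart either.

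Matrix metalloproteinases are zinc-dependent enzymes that are made as inactive precursors and cut collagens and other proteins of the extracellular matrix. Tissue inhibitors of metalloproteinases (TIMPs) bind their active site, and TIMP2 also takes part in the activation of pro-MMP2 by MMP14 at the cell surface. Urokinase (PLAU), bound to its receptor PLAUR on the cell membrane, turns plasminogen into plasmin, which degrades fibrin and can in turn activate metalloproteinase precursors. Both systems are known for their part in the invasion of pancreatic tumours, where surrounding fibroblasts and leukocytes also supply many of the enzymes.

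The labels were read against the targeted genes and the cell type first. At probe A_23_P89249 ERBB2 averaged -0.40 ± 0.12 on the log2 scale (SD, n = 4) and lay below NT on 4 of 4 ErbB2-KD arrays (limma adjusted p = 0.145). The other ERBB2 probe, A_24_P284420, averaged 0.036 ± 0.022 (SD, n = 4) and lay slightly above NT on 4 of 4 arrays (limma adjusted p = 0.897), and the mean of both probes was -0.18. All 4 MUC4 probes had a positive mean in the RNA labelled MUC4-KD, with log2 ratios of 1.84, 1.34, 0.41 and 0.27, and the first pair passed the threshold (limma adjusted p = 0.00804 and 0.0355). MUC4 therefore went against its label, and the direction given here opposes the one the study uses for this experiment. The study also followed ErbB2 in ErbB2-KD clones and MUC4 in MUC4-KD clones, by qRT-PCR for RNA and by Western blot for protein. None of these was analysed here, and an exchange of the MUC4-KD and Mock labels was not tested. Every ratio of the MUC4 experiment is given here as labelled, with Mock as the denominator. The opposite direction has the same size with its sign turned. All 6 epithelial markers stood well above background in all 4 RNAs on every array, whereas 0 of 5 fibroblast markers were so on all 4 arrays of any RNA. Of the 6 leukocyte and endothelial markers, CD68 was so in both experiments and VWF in the ErbB2 experiment alone. In single channels, 56.7% to 74.2% of all probes passed the background flag. The ratios of MUC4-KD array 4 correlated at 0.33 to 0.53 with the other arrays of its experiment over all probes, and those 3 at 0.68 to 0.83 with each other. Pairs of ErbB2-KD arrays correlated at 0.20 to 0.72, and those with array 2 at 0.20 to 0.39. The median raw signal in the knockdown channel was 593 on ErbB2-KD array 2 and 100 to 201 on the others.

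In ErbB2-KD, PLAUR rose 3.13-fold over NT and was higher in all 4 clones. It was the single call among the 6 tested genes, and MMP9, MMP14, TIMP1, TIMP2 and PLAU did not pass the threshold. Across the array 1.43% of the 23869 tested probes were called at a limma adjusted p under 0.05, 0.549% as higher and 0.884% as lower. The median log2 ratio of the 6 genes was 0.41, with 5 of 6 above 0, beside a median of -0.0073 over all tested probes, of which 48.8% were above 0. Against Mock, MMP9 was 3.18-fold higher in the RNA labelled MUC4-KD and was likewise the single call, among 8 tested genes. Here 20.5% of the 25047 tested probes were called (12.0% as higher, 8.48% as lower), so 1 call of 8 lies below the background. The median log2 ratio of the 8 genes was 0.23, with 7 of 8 above 0, beside 0.0082 over all tested probes, of which 50.8% were above 0. MMP1 and MMP7 entered this test through the knockdown channel alone, with Mock well above background on 0 and 2 of 4 arrays. Entry by that channel favours values above 0, so the tally leans on the filter.

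**Figure D1:**
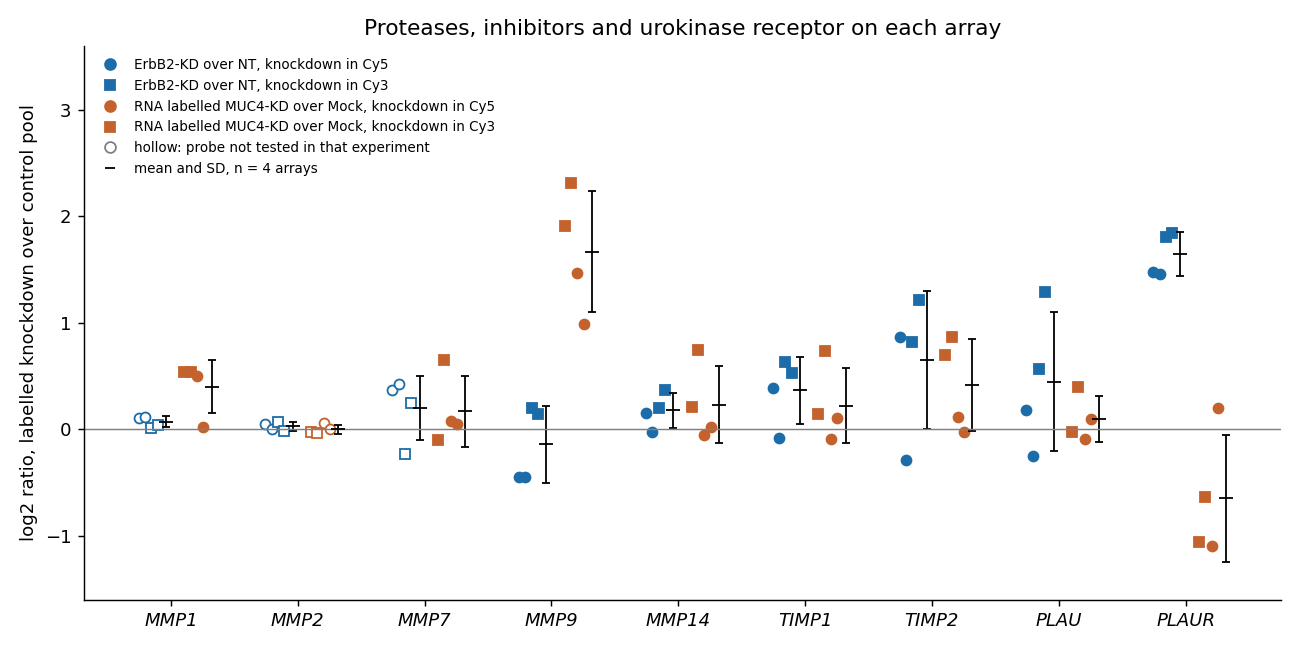
Log2 ratio of labelled knockdown over control pool (vertical axis) for the 9 genes (horizontal axis) on each of the 4 ErbB2-KD arrays (blue) and the 4 arrays of RNA labelled MUC4-KD (orange); circles have the knockdown in Cy5, squares in Cy3, hollow symbols were not tested, and black marks are the mean and SD. PLAUR lies between 1.46 and 1.85 on all ErbB2-KD arrays and MMP9 between 0.99 and 2.32 on all arrays of RNA labelled MUC4-KD, while most other values lie near 0.

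The enzymes that cut collagen were read near the floor of the array for interstitial collagenase (MMP1) and gelatinase A (MMP2). MMP1, which cleaves fibrillar collagens, had log2 ratios of 0.11, 0.12, 0.013 and 0.042 on ErbB2-KD arrays 1 to 4, where it was well above background on 2 arrays in the knockdown and on 1 in NT, so it was not tested. The RNA labelled MUC4-KD gave 0.53, 0.54, 0.50 and 0.025. The first 3 of these log2 ratios lay close together and that of array 4 lay near 0. In the RNA labelled MUC4-KD it passed the background flag on 4 of 4 arrays and in Mock on none. Its mean normalised log2 intensity was 7.44 against a Mock floor of 7.04, a ratio of 1.32-fold. The floor is, per array, the higher of the dimmest signal well above background and the gene's own. For MMP1 the mean floor equalled the mean Mock signal, so 1.32-fold is the mean ratio and not a lower limit. The mean log2 ratio of 0.40 ± 0.25 (SD, n = 4) had a 95% confidence interval from 0.077 to 0.72. It did not pass the threshold (limma adjusted p = 0.0769). Its log2 ratio was 0.52 without MUC4-KD array 4, where it passed (limma adjusted p = 0.0154), and 1.71 in the log ratios of Feature Extraction (adjusted p = 0.00334). Over all alternatives the adjusted p of MMP1 ranged from 0.00334 to 0.772. MMP2, which cleaves basement membrane collagen and gelatin, was well above background on 1 array of each channel in the ErbB2 experiment and on none in the MUC4 experiment. Its log2 ratios were 0.046, 0.0071, 0.071 and -0.018 in ErbB2-KD and -0.025, -0.039, 0.057 and 0.0064 in the RNA labelled MUC4-KD. All 8 of these values lay close to 0, and at this signal neither MMP2 nor a change in it was detectable. Only on ErbB2-KD array 2 did MMP2 pass the flag, with a raw signal 16.2 times its background in the knockdown channel and 6.12 times in NT. The knockdown channel of that array was raised for MMP1 and MMP7 too, at 14.9 and 16.4 times background.

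Gelatinase B (MMP9), the other enzyme of basement membrane collagen, was well above background in every channel. In ErbB2-KD its log2 ratios were -0.45, -0.45, 0.20 and 0.14 on arrays 1 to 4. Both values below 0 came from the arrays with the knockdown in Cy5 and both above 0 from those with it in Cy3, and the mean was -0.14 ± 0.36 (SD, n = 4), with a 95% confidence interval from -0.54 to 0.26 (adjusted p = 0.717 by limma). Over Mock they were 1.91, 2.32, 1.46 and 0.99. The higher pair had the knockdown in Cy3 and the lower pair in Cy5. All 4 of these arrays lay above the Mock pool, and the highest ErbB2-KD value lay below the lowest of these. The mean was 1.67 ± 0.57 (SD, n = 4), with a 95% confidence interval from 1.13 to 2.21 (adjusted p = 0.0102 by limma). The normalised log2 intensity of MMP9 lay between 11.9 and 12.5 in the RNA labelled MUC4-KD and between 10.2 and 10.9 in Mock. The call was lost under median centring (log2 ratio 1.81, adjusted p = 0.292), by the methods' t-test (adjusted p = 0.117) and without MUC4-KD array 1 or 3 (limma adjusted p = 0.0536 and 0.0761). It was kept in 12 of 16 alternatives, with a log2 ratio from 1.45 to 1.90 and an adjusted p from 0.00178 to 0.292.

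Matrilysin (MMP7), a small metalloproteinase of epithelial cells, was dim. Its log2 ratios were 0.37, 0.43, -0.23 and 0.25 in ErbB2-KD, where it was well above background on 3 arrays in the knockdown and on none in NT, and it was not tested. Over Mock the RNA labelled MUC4-KD gave -0.10, 0.65, 0.077 and 0.048. Array 2 stood above the rest, and the mean of 0.17 ± 0.33 (SD, n = 4) had a 95% confidence interval of -0.20 to 0.54 (limma adjusted p = 0.440). The size for MMP7 depended on the processing, with a log2 ratio of 0.31 at a normexp offset of 10 and 1.55 in the log ratios of Feature Extraction, which differ in background handling and normalisation at once. MMP14, the membrane-type enzyme that activates pro-MMP2, was well above background in every channel. It had log2 ratios of 0.15, -0.022, 0.20 and 0.37 in ErbB2-KD, with a mean of 0.18 ± 0.16 (SD, n = 4), with a 95% confidence interval from -0.11 to 0.46 (adjusted p = 0.488 by limma). The MUC4 experiment gave log2 ratios of 0.21, 0.75, -0.056 and 0.018, with a mean of 0.23 ± 0.36 (SD, n = 4), with a 95% confidence interval from -0.16 to 0.62 (adjusted p = 0.325 by limma). Neither experiment gave a call for MMP14, and both intervals include 0 and lie within a 2-fold change.

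**Figure D2:**
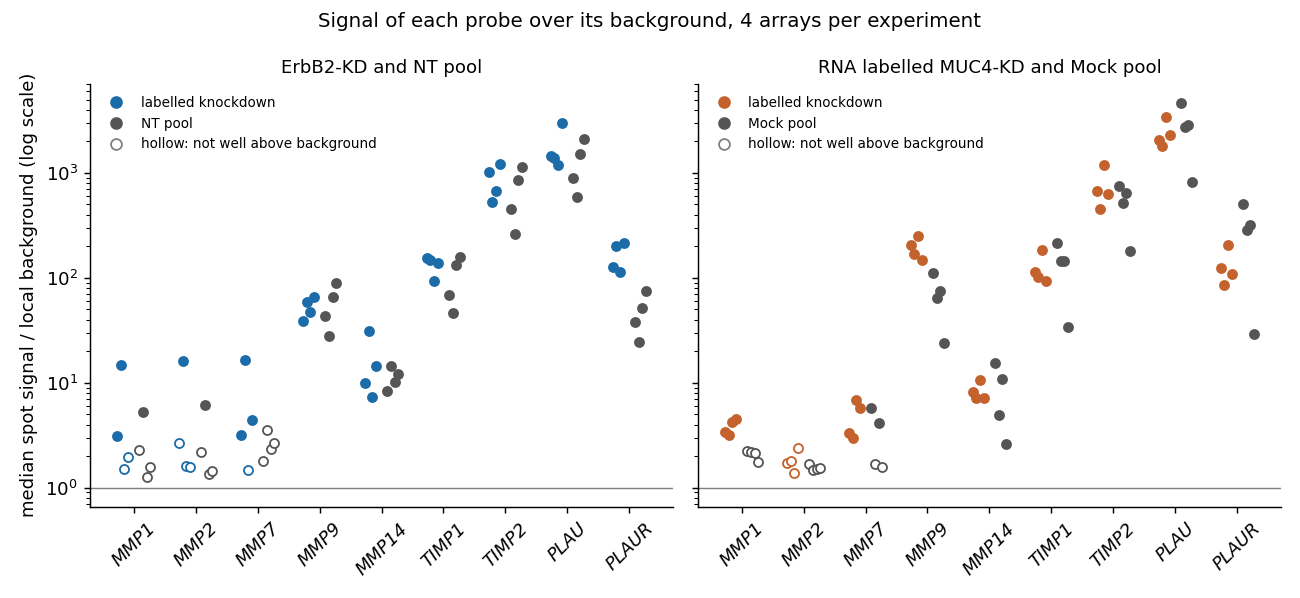
Median spot signal divided by the local background (vertical axis, log scale) of each gene's probe on the 4 arrays of each experiment, for the labelled knockdown (coloured) and the control pool on the same array (grey); hollow points were not well above background. MMP1, MMP2 and MMP7 lie mostly under 10 in both experiments, and the other 6 genes are filled in every channel.

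The inhibitors were bright. TIMP1, a secreted inhibitor of most metalloproteinases, had log2 ratios of 0.38, -0.085, 0.63 and 0.52 in ErbB2-KD. Arrays 1, 3 and 4 were higher and array 2 was near 0, with a mean of 0.36 ± 0.32 (SD, n = 4), with a 95% confidence interval from -0.0030 to 0.73 (adjusted p = 0.280 by limma). The MUC4 experiment gave log2 ratios of 0.14, 0.73, -0.088 and 0.10. Array 2 stood out among these, and the mean was 0.22 ± 0.36 (SD, n = 4), with a 95% confidence interval from -0.17 to 0.61 (adjusted p = 0.335 by limma). TIMP2, the inhibitor that also bridges pro-MMP2 to MMP14, had log2 ratios of 0.86, -0.29, 0.82 and 1.21 in ErbB2-KD. Clone EV12, on array 2, was again the one that lay below the NT pool, as for TIMP1. The mean of TIMP2 was 0.65 ± 0.65 (SD, n = 4), with a 95% confidence interval from 0.038 to 1.26 (unadjusted p = 0.0406 and adjusted p = 0.252 by limma). Without array 2 the log2 ratio was 0.96 and passed the threshold (limma adjusted p = 0.0417), the single alternative of 15 in which it did, and the adjusted p ranged up to 0.588. Over Mock the log2 ratios of TIMP2 were 0.70, 0.87, 0.11 and -0.023. The arrays with the knockdown in Cy3 were higher and those with it in Cy5 were near 0, with a mean of 0.42 ± 0.44 (SD, n = 4, adjusted p = 0.142 by limma). With a dye term in the fit it passed (adjusted p = 0.0413), and it passed in 1 of 16 alternatives in all.

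Urokinase (PLAU) had a strong signal in every RNA, at least 590.0 times its background on each array. Its log2 ratios were 0.18, -0.25, 0.57 and 1.29 in ErbB2-KD, so that clone EV18 stood highest and clone EV12 lay below the NT pool. The mean was 0.45 ± 0.65 (SD, n = 4), with a 95% confidence interval from -0.16 to 1.06 (adjusted p = 0.414 by limma). Over Mock they were -0.022, 0.40, -0.095 and 0.10. These scattered around 0, with a mean of 0.095 ± 0.22 (SD, n = 4), with a 95% confidence interval from -0.21 to 0.40 (adjusted p = 0.601 by limma). Neither difference in PLAU was larger than the spread between arrays.

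The urokinase receptor (PLAUR), which holds urokinase at the cell surface, gave the largest change among these genes in ErbB2-KD. Its log2 ratios over NT were 1.48, 1.46, 1.80 and 1.85, and no clone came near 0. The lower pair had the knockdown in Cy5 and the higher pair in Cy3. The mean was 1.65 ± 0.21 (SD, n = 4), with a 95% confidence interval from 1.34 to 1.95 (adjusted p = 0.0118 by limma). The normalised log2 intensity rose from between 10.35 and 10.49 in NT to between 11.8 and 12.3 in ErbB2-KD. With 3 arrays the size held but the call did not always: without array 1, 3 or 4 the log2 ratio was 1.70, 1.59 and 1.58 with a limma adjusted p of 0.0604, 0.0780 and 0.0601. Over the 15 alternatives the log2 ratio ranged from 1.58 to 1.78 and the adjusted p from 0.00285 to 0.205, the last by the methods' t-test, and 11 of 15 kept the call.

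Over Mock the log2 ratios of PLAUR were -1.06, -0.64, -1.10 and 0.20. Arrays 1 to 3 lay below the Mock pool and array 4 slightly above it, and the mean of -0.65 ± 0.60 (SD, n = 4, with a 95% confidence interval from -1.22 to -0.083) did not pass the threshold (limma adjusted p = 0.0918). Without MUC4-KD array 4 the log2 ratio was -0.93 and passed (limma adjusted p = 0.00647). It also passed with the slide as a random block (adjusted p = 0.0413) and with 1 spread over 8 arrays (adjusted p = 0.0398), and over the 16 alternatives the adjusted p ranged from 0.00647 to 0.915. The normalised log2 intensity of PLAUR in the RNA labelled MUC4-KD lay between 11.4 and 11.7 on the 4 arrays. In the Mock channel it was 12.7, 12.2, 12.8 and 11.2, so the array that stood apart did so in the channel of the control, which by the methods is the same pool on each array. Over all probes, 56.7% were well above background in the Mock channel of array 4, against 65.9% to 67.3% on arrays 1 to 3. The part of this weaker channel in the PLAUR value was not tested.

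**Figure D3:**
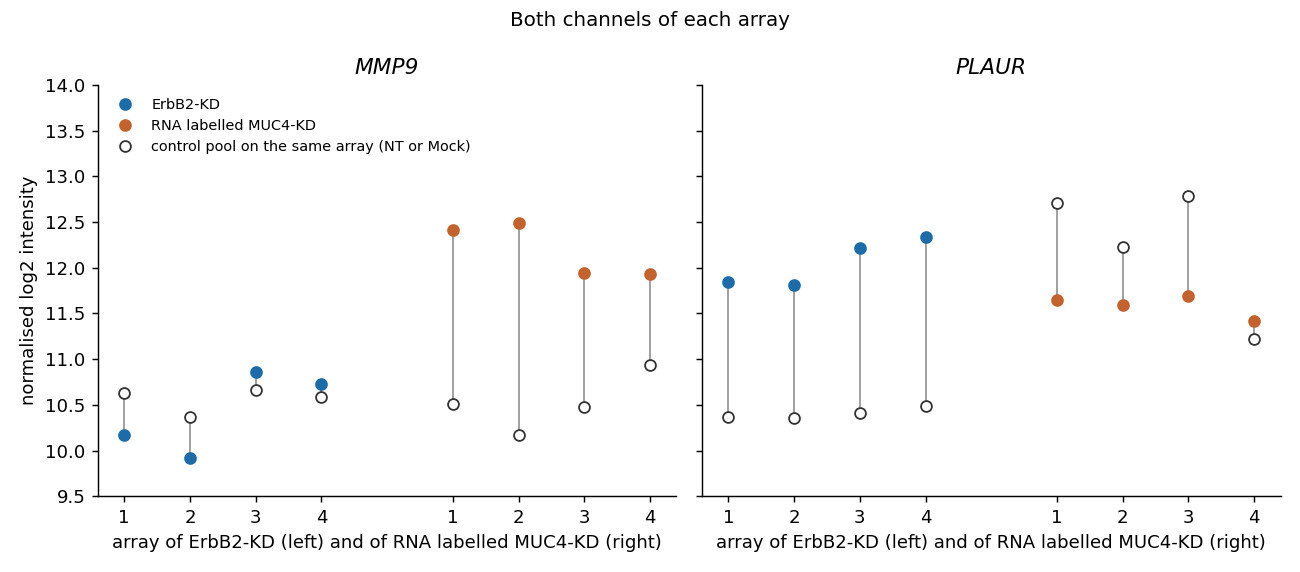
Normalised log2 intensity (vertical axis) of MMP9 and PLAUR in both channels of each array (horizontal axis), with the labelled knockdown filled, the control pool hollow and a line joining the channels of an array. PLAUR in NT stays between 10.35 and 10.49 while ErbB2-KD lies between 11.8 and 12.3, and its Mock channel drops from over 12.2 on arrays 1 to 3 to 11.2 on MUC4-KD array 4.

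The promoter of PLAUR is shown because PLAUR was the gene called in ErbB2-KD, and motifs of AP-1 and ETS factors, known regulators of such genes, were searched there. The sequence is from RefSeq on GRCh38.p14 and covers the 250 bases before the annotated start at chr19:43670170-43670419 on the minus strand, written in the direction of transcription, with the motif matches in capitals.

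PLAUR: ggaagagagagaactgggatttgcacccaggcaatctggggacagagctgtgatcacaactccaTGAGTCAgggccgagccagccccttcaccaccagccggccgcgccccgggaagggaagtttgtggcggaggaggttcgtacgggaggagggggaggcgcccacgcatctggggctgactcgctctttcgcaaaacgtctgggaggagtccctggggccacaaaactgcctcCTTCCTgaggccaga

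The first match in capitals is an AP-1 type site (TGANTCA), from base 186 to base 180 before the start. The last is the complement of a PEA3-type ETS site (AGGAAG), from base 15 to base 10. Searched on both strands, TGANTCA was found in 6.57% and AGGAAG in 28.7% of the 35116 promoter windows of RefSeq, taking the same 250 bases of each. No TATA box (TATAAA, in 10.7% of windows) was found in this window. Promoter windows were given for 5 of the 9 genes. That of MMP7 held 1 match of TGANTCA, 2 of AGGAAG and 1 of TATAAA. TIMP1 and the second of 2 PLAU windows held 1 match of AGGAAG each, and neither MMP14 nor the first PLAU window held any of the 3 motifs. These matches describe the letters only and were not tested for binding.

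The difference between the experiments was tested for each gene over all 8 arrays. MMP9 was 1.81 higher on the log2 scale over Mock in the RNA labelled MUC4-KD than over NT in ErbB2-KD (95% confidence interval 1.14 to 2.48, adjusted p = 0.0100 by limma). PLAUR was lower by -2.30 (95% confidence interval -2.93 to -1.66, adjusted p = 0.00385 by limma). These were 2 of the 8 genes tested, beside 9.91% of the 25835 probes tested for the difference (6.49% higher, 3.41% lower). In both genes the 4 arrays of one experiment did not overlap those of the other, and the two-sided exact permutation p was 0.0286, the smallest that 4 against 4 allows. Such separation was common, at 17.8% of the 25723 probes with a value on all 8 arrays. Each slide held arrays of both experiments. Slide 1 held ErbB2-KD arrays 1 and 3 with MUC4-KD array 2, and slide 3 held ErbB2-KD array 4 with MUC4-KD arrays 1 and 3. On slide 2 were only ErbB2-KD array 2 and MUC4-KD array 4. Within slides 1, 2 and 3 the difference in MMP9 was 2.44, 1.44 and 1.55 and that in PLAUR -2.28, -1.26 and -2.92. With the MUC4-KD ratios turned, as MUC4 itself reads, the difference was -1.53 for MMP9 (limma adjusted p = 0.0118) and -0.995 for PLAUR (adjusted p = 0.0415). The direction of the difference hangs on the label for MMP9 and not for PLAUR. The direction of PLAUR over Mock itself turns with the label, as does every ratio of that experiment. As labelled, both calls for the difference were lost under median centring (limma adjusted p = 0.0659 and 0.356). The other 6 genes had a difference from -0.35 (PLAU) to 0.33 (MMP1), with limma adjusted p from 0.206 to 0.934.

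**Figure D4:**
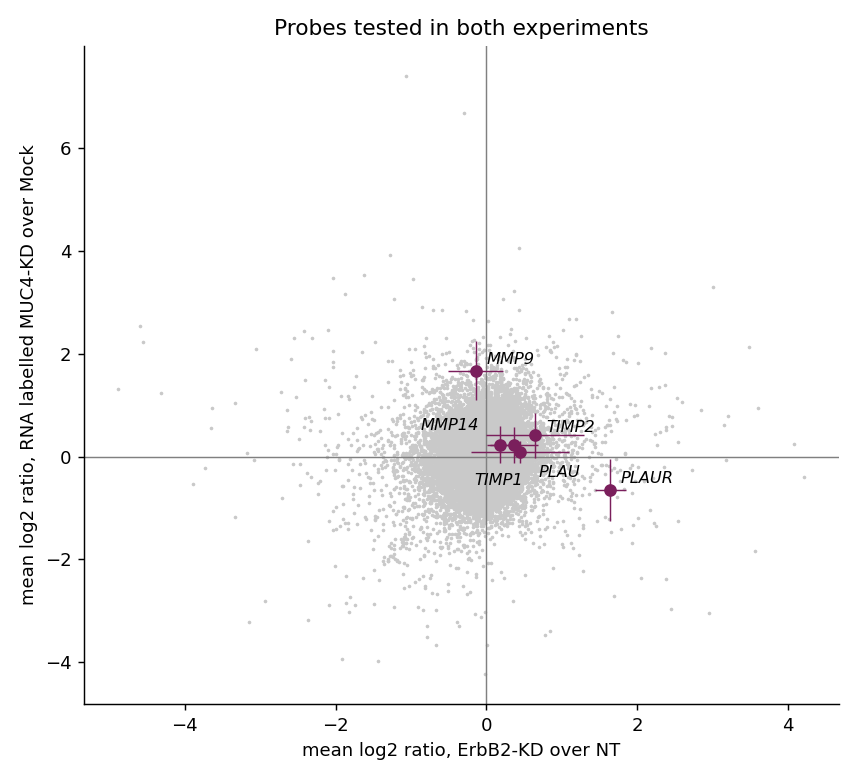
Mean log2 ratio in ErbB2-KD over NT (horizontal axis) against that in RNA labelled MUC4-KD over Mock (vertical axis) for all probes tested in both experiments (grey), with 6 of the 9 genes in purple and bars for the SD over 4 arrays. MMP9 stands at -0.14 and 1.67 and PLAUR at 1.65 and -0.65, while MMP14, TIMP1, TIMP2 and PLAU lie between 0 and 0.65 on both axes.

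The genes whose log2 ratios over the 8 arrays were most like those of MMP9 and PLAUR were named by the smallest root mean square difference among 11682 genes. For MMP9 they were CLK1 (0.342), PIF1 (0.363) and ZNF184 (0.386). For PLAUR they were ECM1 (0.352), ADAMTSL4 (0.455) and DLC1 (0.473). ECM1, a secreted protein of the extracellular matrix, had a mean log2 ratio of 1.74 in ErbB2-KD and -0.78 in the RNA labelled MUC4-KD. This is a description of 8 arrays that share their controls within each experiment.

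Other genes of the same pathways were read from lists that were chosen with earlier results of these data known. In ErbB2-KD none passed the limma threshold, out of 7 tested of 18 other metalloproteinases, 3 of 6 other inhibitors and activators, 13 of 17 other plasminogen system genes and 5 of 7 membrane serine proteases with their inhibitors. At an unadjusted p under 0.05 there were 1, 0, 3 and 0 of them, or 4 of 28, beside 18.0% of all tested probes. The median log2 ratios of these lists were 0.042, 0.019, 0.022 and 0.12.

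In the MUC4 experiment, where 20.5% of all tested probes were called (12.0% as higher, 8.48% as lower) and 50.8% were above 0, the 4 lists held 11 called genes of 28 tested. Among other metalloproteinases 2 of 7 were called, both lower, with a list median of -0.018. MMP17, a metalloproteinase anchored to the membrane by a lipid tail, had log2 ratios of -0.81, -0.79, -0.87 and -0.33, with a mean of -0.70 ± 0.25 (SD, n = 4, adjusted p = 0.0223 by limma). MMP15, a relative of MMP14, had a mean of -0.68 ± 0.40 (SD, n = 4, adjusted p = 0.0428) at its brighter probe and -0.43 (adjusted p = 0.136) at the other. Neither call held in every alternative. That of MMP17 was lost in 5 of 16 alternatives and that of MMP15 in 10 of 16. When 1 array was left out, MMP17 was called only without MUC4-KD array 4 (limma adjusted p = 0.00449, otherwise 0.0888 to 0.128) and MMP15 only without array 2 (0.0471, otherwise 0.0536 to 0.182).

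Of 5 tested inhibitors and activators, 3 were called in the MUC4 experiment (20.5% of all probes) and the list median was 0.49. TIMP4 fell, with log2 ratios of -1.22, -2.05, -1.16 and -1.18 (mean -1.40 ± 0.43, SD, n = 4, adjusted p = 0.00912 by limma). TIMP3, the inhibitor that binds the matrix, rose by 0.85 ± 0.54 (SD, n = 4, adjusted p = 0.0419), but only 2 of 4 Mock arrays had it well above background, and the log ratios of Feature Extraction gave 3.28. RECK, a membrane-anchored inhibitor of MMP9, MMP2 and MMP14, rose by 0.82 ± 0.46 (SD, n = 4, adjusted p = 0.0349). The call of TIMP4 held in 13 of 16 alternatives and was lost without MUC4-KD array 3 (limma adjusted p = 0.0707). That of TIMP3 held in 9 of 15 and that of RECK in 10 of 16, and both were lost without array 1, 2 or 3, with limma adjusted p from 0.136 to 0.1802 for TIMP3 and from 0.102 to 0.162 for RECK.

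Of 11 tested plasminogen system genes, 4 were called as higher and 1 as lower over Mock, with 10 of 11 above 0 and a list median of 0.43. Some of them entered the test through the knockdown channel alone, which favours values above 0. Over all tested probes 12.0% were called as higher, 8.48% as lower, and 50.8% were above 0. Tissue plasminogen activator (PLAT) had log2 ratios of 1.29, 1.68, 1.43 and 1.39, and its mean was 1.45 ± 0.16 (SD, n = 4, adjusted p = 0.00312 by limma). PLAT was called in 14 of 16 alternatives, more often than MMP9. In ErbB2-KD the log2 ratios of PLAT were 1.88, -0.079, 1.77 and 1.38 (mean 1.24 ± 0.90, SD, n = 4, adjusted p = 0.142 by limma). As with TIMP2, TIMP1 and PLAU, clone EV12 on array 2 was the one that lay below the NT pool. With 1 array for each clone, a clone and its array cannot be told apart. S100A10, the annexin A2 partner that binds plasminogen at the membrane, rose by 1.28 ± 0.78 (SD, n = 4, adjusted p = 0.0337), while ANXA2 itself had a mean of 0.35 (adjusted p = 0.446) at its brightest probe. SERPINE2, an inhibitor of plasminogen activators, fell, with a mean of -0.77 ± 0.46 (SD, n = 4, adjusted p = 0.0399). The remaining called genes, named after their values were seen, were SERPINB2, another urokinase inhibitor (0.72, adjusted p = 0.0467), and the plasminogen receptor PLGRKT (0.57, adjusted p = 0.0335). Plasminogen itself (PLG) was not tested at any of its 4 probes. Among 5 tested membrane serine proteases and their inhibitors, PRSS8 (prostasin) fell by 0.60 on the log2 scale (adjusted p = 0.0266), and the list median was -0.093. The calls of S100A10, SERPINE2 and PRSS8 held in 9, 10 and 8 of 16 alternatives. Each was lost without MUC4-KD array 1, 2 or 3, with limma adjusted p from 0.0793 to 0.0949 for S100A10, 0.0908 to 0.130 for SERPINE2 and 0.0792 to 0.139 for PRSS8. The difference between the experiments was called for 3 of 30 tested genes of the lists, a share near the 9.91% of all probes. They were, as labelled, MMP17 (-0.78, limma adjusted p = 0.0478), TIMP4 (-1.02, adjusted p = 0.0435) and PLGRKT (1.44, adjusted p = 0.0137). In ErbB2-KD their mean log2 ratios were 0.075, -0.38 and -0.87. With the MUC4-KD ratios turned, the difference would change direction for MMP17 and TIMP4. For PLGRKT it would keep its direction and be smaller.

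**Figure D5:**
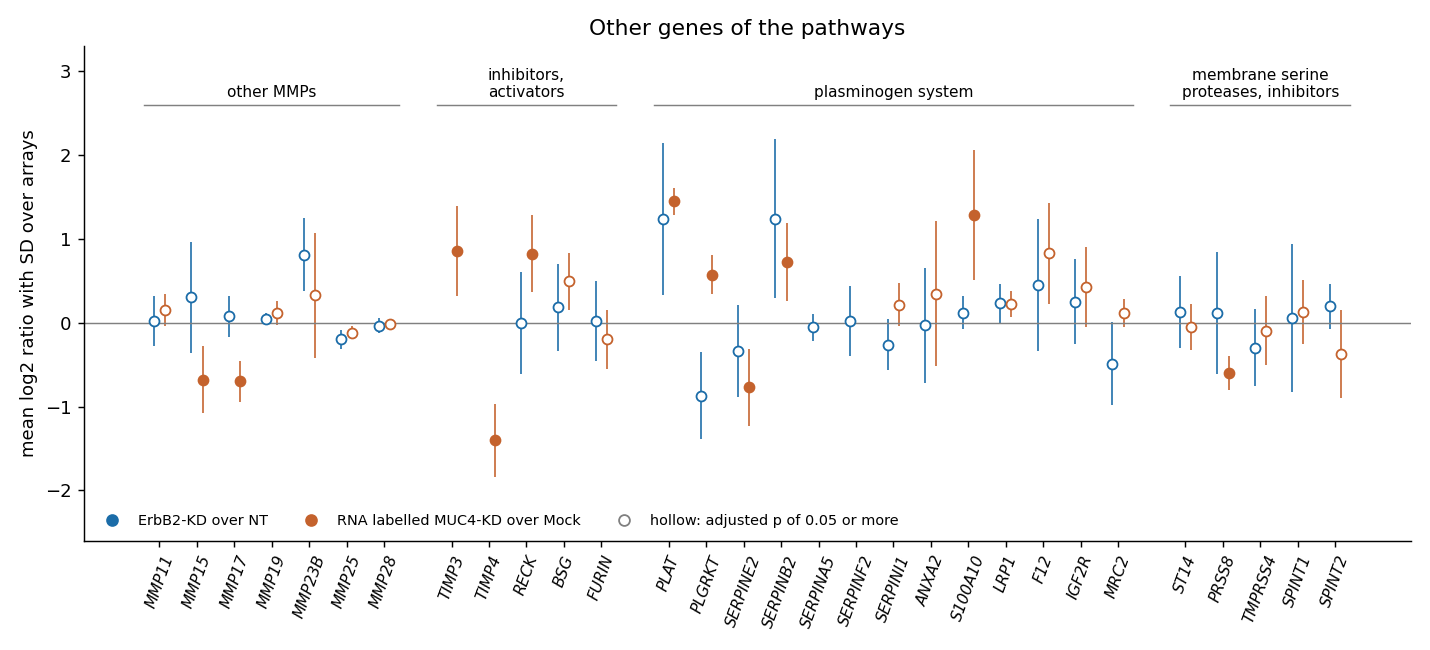
Mean log2 ratio with SD over arrays (vertical axis) of each tested gene of the 4 lists (horizontal axis) in ErbB2-KD over NT (blue) and RNA labelled MUC4-KD over Mock (orange); filled points passed an adjusted p of 0.05 and hollow points did not. No blue point is filled, and the largest filled values are PLAT at 1.45 and TIMP4 at -1.40; MMP17 in ErbB2-KD has 3 arrays, since an outlier spot was left out.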

How the data were processed

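RNA of 8 samples was hybridised on Agilent 2-colour arrays. The authors scanned them and deposited the Feature Extraction 10.5.1.1 output, which gives the spot and background intensity of each channel, the log10 ratio of Cy5 over Cy3 and flags for signal above background; a deposited table of log10 ratios equals these, turned as labelled, within 4.993e-06 and was not used. The methods name GeneSpring for the later steps, whose values were not used here. The genes and gene lists were chosen with earlier results of these data known.

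In R 4.3.3 with limma 3.58.1, the median intensity was corrected by normexp (offset 50), and each array was normalised by loess without outlier spots. Ratios were turned, by the labelled dyes, to run from control to knockdown, and the 43376 spots were averaged to 41000 probes, of which 25398 had a symbol through their accession in RefSeq. Mean log2 ratios were tested against 0 with lmFit and eBayes, and differences between experiments over 8 arrays, with Benjamini-Hochberg adjustment over all tested probes and a threshold of 0.05. Each control pool counts as 1 sample. With 4 arrays, the smallest two-sided p of an exact sign-flip test is 0.125. Precision is limited by the number of arrays.

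The named genes are the 9 members, ERBB2 and MUC4, up to 3 called genes with the largest ratio per list and experiment, and the 3 genes most like each called member. A list takes the brightest tested probe of each gene, and 1 gene of the plasminogen list is not reported here and was left out of its counts. In a test on simulated data that kept the arrays' spread and changed 200 probes, a log2 change of 2 was recovered at 82.0% of them in ErbB2-KD (23869 probes), 87.0% in MUC4-KD (25047) and 87.5% for the difference (25835). A change of 1 was recovered at 30.5%, 38.0% and 23.0%. In the data 342, 5131 and 2559 probes were called, more than the 200 changed in the simulation. The adjustment depends on the share changed, so these rates hold for the simulated setting only. Alternatives were leaving out each array, the replicate number as a block, MUC4-KD arrays averaged in pairs, the slide as a random block, 1 spread over 8 arrays, a dye term, median centring, Feature Extraction's log ratios, an offset of 10, no filter, a filter on both channels, an intensity trend with robust eBayes, the methods' t-test and the mean over a gene's probes. The turned MUC4-KD sign was chosen after seeing the data.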

Additional observations from a re-analysis of the deposited data

Results flagged for a closer look

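In 3 of 23 sets of 4 arrays 1 value lay apart from the other three; chance gives this in about 1 of 20 sets. MMP1 had a log2 ratio of 0.03 on MUC4-KD array 4, against 0.50 to 0.54 on the others. MMP17 had -0.33 on the same array, against -0.87 to -0.79. TIMP4 had -2.05 on MUC4-KD array 2, against -1.22 to -1.16. MUC4-KD array 4 also stood apart over all probes, and its part in these values was not tested.

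The effect on MMP9 and on PLAUR differed between the experiments by limma over 8 arrays: by 1.81 on the log2 scale for MMP9 (adjusted p = 0.0100) and by -2.30 for PLAUR (adjusted p = 0.00385), each as RNA labelled MUC4-KD over Mock minus ErbB2-KD over NT. MMP9 was higher on 4 of 4 arrays of the first and 2 of 4 of the second. PLAUR was higher on 1 of 4 and 4 of 4. Among the other listed genes the same test passed for 3 of 30, beside 9.91% of all tested probes: MMP17 (-0.78, limma adjusted p = 0.0478), TIMP4 (-1.02, adjusted p = 0.0435) and PLGRKT (1.44, adjusted p = 0.0137). These too are as labelled, and the direction for MMP17 and TIMP4 hangs on the label.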

How the results depend on the processing

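The number of called genes among the 9 depended on the setting. In ErbB2-KD it was 1, and it was 0 by the methods' t-test and 0 to 2 when 1 array was left out. In the RNA labelled MUC4-KD it was 1, and it was 2 with a dye term, an intensity trend, an offset of 10 or Feature Extraction's own log ratios, 3 with the slide as a random block or 1 spread over 8 arrays, 0 under median centring or the methods' t-test, and 0 to 3 when 1 array was left out. For the difference it was 2, and it was 0 under median centring and 2 to 3 when 1 array was left out. Over single genes and settings, the 9 genes lost a call 11 times, gained one 12 times and turned direction 15 times, and the other named genes did so 53, 2 and 2 times. The cause was not tested.

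The replicate numbers did not pair the arrays: deviations of same-numbered arrays correlated at -0.24 to -0.048, and no array matched its own number best. With the replicate number as a block, 1 gene was called for the difference: PLAUR remained (-2.30, limma adjusted p = 0.0266) and MMP9 did not (1.81, adjusted p = 0.0566). All called probes went from 2559 to 583.

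The direction of some values turned, most of them near 0. In the difference, MMP7 was 0.055 with an offset of 10 and -0.19 to 0.057 when 1 array was left out. MMP14 was -0.012 in the log ratios of Feature Extraction, -0.035 under median centring and -0.12 to 0.15 when 1 array was left out. TIMP1 was 0.043 and TIMP2 0.0087 under median centring. With the MUC4-KD sign turned, MMP1 went from 0.33 to -0.47, MMP9 from 1.81 to -1.53 and MMP14 to -0.41. In the RNA labelled MUC4-KD, PLAU was -0.0058 without replicate 2 (leaving out 1 array gave up to 0.16) and ERBB2 was 0.016 without replicate 4 (as low as -0.47 otherwise). MUC4 in ErbB2-KD was 0.52 at its brightest probe and -0.16 as the mean of its probes.

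Over all probes, 342 were called in ErbB2-KD, with 31 under median centring, 50 with no filter, 190 with a dye term, 515 with an intensity trend, 1081 with the slide as a random block, 1121 with 1 spread over 8 arrays, 0 by the methods' t-test (3176 at an unadjusted p under 0.05) and 0 to 487 when 1 array was left out. In MUC4-KD 5131 were called, with 1 under median centring, 2930 with no filter, 106 by the methods' t-test and 154 to 9347 when 1 array was left out. For the difference the 2559 became 4076 in the log ratios of Feature Extraction, 117 under median centring, 4433 with the MUC4-KD sign turned and 638 to 5060 when 1 array was left out.

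Signal over background limits MMP1, MMP2 and MMP7, whose ratios can be too small. If 2 MUC4-KD arrays hold the same clone, their n of 4 is too high; averaging arrays 1 with 3 and 2 with 4 kept MMP9 (adjusted p = 0.0156). The slides shared little of the spread (consensus correlation 0.0139).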
